A study of Mus musculus with 8 samples.

Results

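Cathepsins are the main proteases of the lysosome, and 10 of their genes (Ctsa, Ctsb, Ctsc, Ctsd, Ctsh, Ctsk, Ctsl, Ctso, Ctss and Ctsz) were followed here among the 22274 genes of the table. They were taken by gene symbol from a list drawn up with earlier results of these data known, and all 10 passed the filter on low counts. The cells were primary murine cardiac fibroblasts, the matrix-producing cells of the heart in culture. They were transduced with an adenovirus and treated with TGF-β, the cytokine that turns fibroblasts into myofibroblasts, at 5 ng/ml for 24 h. The virus was an empty vector in the 4 libraries labelled GFP and carried IRF7, a transcription factor of the interferon response, with a FLAG tag in the 4 libraries labelled OEIRF7. All 8 libraries, controls included, therefore come from cells that met both virus and TGF-β, and no library without either was analysed here. The virus, dose and time are those of the study's methods. The submitters' design text speaks of an adeno-associated virus. The labels do not say whether the libraries of a group came from separate animals or cultures. The p-values thus set the difference between groups against the spread between these libraries, which may be technical.

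Cathepsins are made as inactive precursors, carried to lysosomes largely by mannose 6-phosphate receptors and activated at acid pH. Most of the family are cysteine proteases (Ctsb, Ctsc, Ctsh, Ctsk, Ctsl, Ctso, Ctss and Ctsz), while Ctsd is an aspartic protease and Ctsa a serine carboxypeptidase. Cystatins, small proteins inside and outside cells, inhibit the cysteine members. In fibroblasts these enzymes degrade endocytosed collagen and other matrix proteins, and some are secreted and cut matrix outside the cell.

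Total counts per library lay between 24888589 and 27095611 in GFP and between 24454801 and 28658826 in OEIRF7. Any of the 12 pairs of replicates differed by more than sampling noise, as chi-square values of 2.91 to 9.94 for each degree of freedom showed, so no library was counted as a copy of another. Mouse Irf7 itself had 2861, 3680, 2272 and 3291 counts in GFP and 385, 421, 380 and 404 counts in OEIRF7, a log2 fold change of -2.96 (SE 0.12). The reagent list of the study names the virus for the human gene, whose transcripts these mouse gene counts would not measure. With the human gene the counts do not check the labels, with the mouse gene they would go against them, and every direction is given between libraries as they are labelled. The fibroblast genes Col1a1 (4561 ± 140 CPM in GFP and 4070 ± 187 CPM in OEIRF7; SD, n = 4) and Postn (2631 ± 93.2 and 2018 ± 94.1 CPM) were abundant in both groups and lower in OEIRF7 (log2 fold changes of -0.16 and -0.38, adjusted p = 0.00052 and 2.8e-07 by edgeR), where CPM is the count scaled to library size with TMM factors. Of 10 cardiomyocyte markers, 8 had at most 10 counts in any library, Myh6 among them.

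The promoters of 8 cathepsins, 9 windows in all, were found in the RefSeq table for GRCm38.p6, which spans 250 bases before to 50 bases after a start site. Ctsb and Ctsh were not in it. Both strands were searched for 3 motifs: CACGTG, the E-box core that includes the sites of the lysosomal regulators TFEB and TFE3, GAAANNGAA, the core of the interferon-stimulated response element that interferon regulatory factors bind, and TGANTCA, the site of AP-1. The windows of 4 genes are shown because they contrast the neighbouring genes Ctss and Ctsk, the only gene with a lower call (Ctso), and the most abundant gene (Ctsd). Each runs 5′ to 3′ along its gene from 250 bases before to 30 bases after the start, with motif letters in capitals. They lie at chr3:95526536-95526815 (plus strand, Ctss), chr3:95498960-95499239 (plus strand, Ctsk), chr3:81932351-81932630 (plus strand, Ctso) and chr7:142387798-142388077 (minus strand, Ctsd).
Ctss: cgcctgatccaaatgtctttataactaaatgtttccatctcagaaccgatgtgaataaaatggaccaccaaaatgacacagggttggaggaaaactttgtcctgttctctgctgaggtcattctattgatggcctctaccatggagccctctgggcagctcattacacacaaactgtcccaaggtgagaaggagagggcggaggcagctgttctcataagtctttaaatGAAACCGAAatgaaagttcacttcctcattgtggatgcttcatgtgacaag
Ctsk: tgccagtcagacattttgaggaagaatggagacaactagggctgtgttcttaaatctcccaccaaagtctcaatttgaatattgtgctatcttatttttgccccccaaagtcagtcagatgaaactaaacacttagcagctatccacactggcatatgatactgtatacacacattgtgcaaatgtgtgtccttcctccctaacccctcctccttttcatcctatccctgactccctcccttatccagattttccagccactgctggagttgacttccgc
Ctso: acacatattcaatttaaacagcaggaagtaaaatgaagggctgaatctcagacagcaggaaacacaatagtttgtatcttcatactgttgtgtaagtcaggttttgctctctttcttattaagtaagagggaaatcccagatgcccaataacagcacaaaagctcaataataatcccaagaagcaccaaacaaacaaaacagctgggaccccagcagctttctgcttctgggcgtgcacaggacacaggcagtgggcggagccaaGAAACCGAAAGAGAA
Ctsd: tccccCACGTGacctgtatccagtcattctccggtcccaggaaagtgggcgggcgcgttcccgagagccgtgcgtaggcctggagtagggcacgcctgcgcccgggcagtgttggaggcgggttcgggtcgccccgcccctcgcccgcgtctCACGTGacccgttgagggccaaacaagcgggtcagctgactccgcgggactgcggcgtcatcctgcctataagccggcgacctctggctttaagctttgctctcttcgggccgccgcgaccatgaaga

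GAAANNGAA was present in 8.56% of the 32851 windows of the table. In Ctss its first base lay 21 bases before the start, and Ctso held 2 overlapping matches, at bases 16 and 22 counted from the start. CACGTG was present in 7.15% of windows. Ctsd held it 245 and 98 bases before the start, Ctsl 236 bases before it, and 1 of the windows of Ctsa held it 12 bases before the start and at base 6 counted from the start. These starts are those of the RefSeq table. The annotated genes of Ctsa, Ctsd and Ctsl begin further upstream, at 164832873, 142388038 and 64370890. The Ctsl and Ctsa matches and the Ctsd match at 98 bases therefore lie inside the annotated genes. TGANTCA, present in 7.81% of windows, was in none of the 9, and the windows of Ctsk, Ctsc and Ctsz held none of the 3 motifs. These are matches of letters only, and a window without them says nothing of the factors elsewhere.

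Between the groups, 5 cathepsins rose in OEIRF7: Ctsc and Ctsk by about the same amount, then Ctsh, Ctsl and Ctsz. Ctso fell slightly, and Ctsa, Ctsb, Ctsd and Ctss did not pass the test, which was edgeR's quasi-likelihood test with Benjamini-Hochberg adjustment over 13533 genes at an adjusted p under 0.05. Much of the transcriptome passed it too: 29.0% of tested genes were called higher and 29.9% lower, so 5 of 10 higher and 1 of 10 lower are counts to be read against a wide background. By the thresholds of the study's methods, an unadjusted p under 0.05 with a fold change above 1.5 or below 0.66, 2 cathepsins passed upward (Ctsc and Ctsk) beside 9.47% of tested genes, and none downward beside 9.56%. In 5 of the 10 genes the groups did not overlap, which was true of 53.8% of all tested genes, a share close to that of the cathepsins. The median log2 fold change of the 10 was 0.15, and that of all tested genes 0.0015. In bulk RNA, fewer cells of a type and less RNA per cell cannot be told apart, and this holds for all values that follow.

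**Figure D1:**
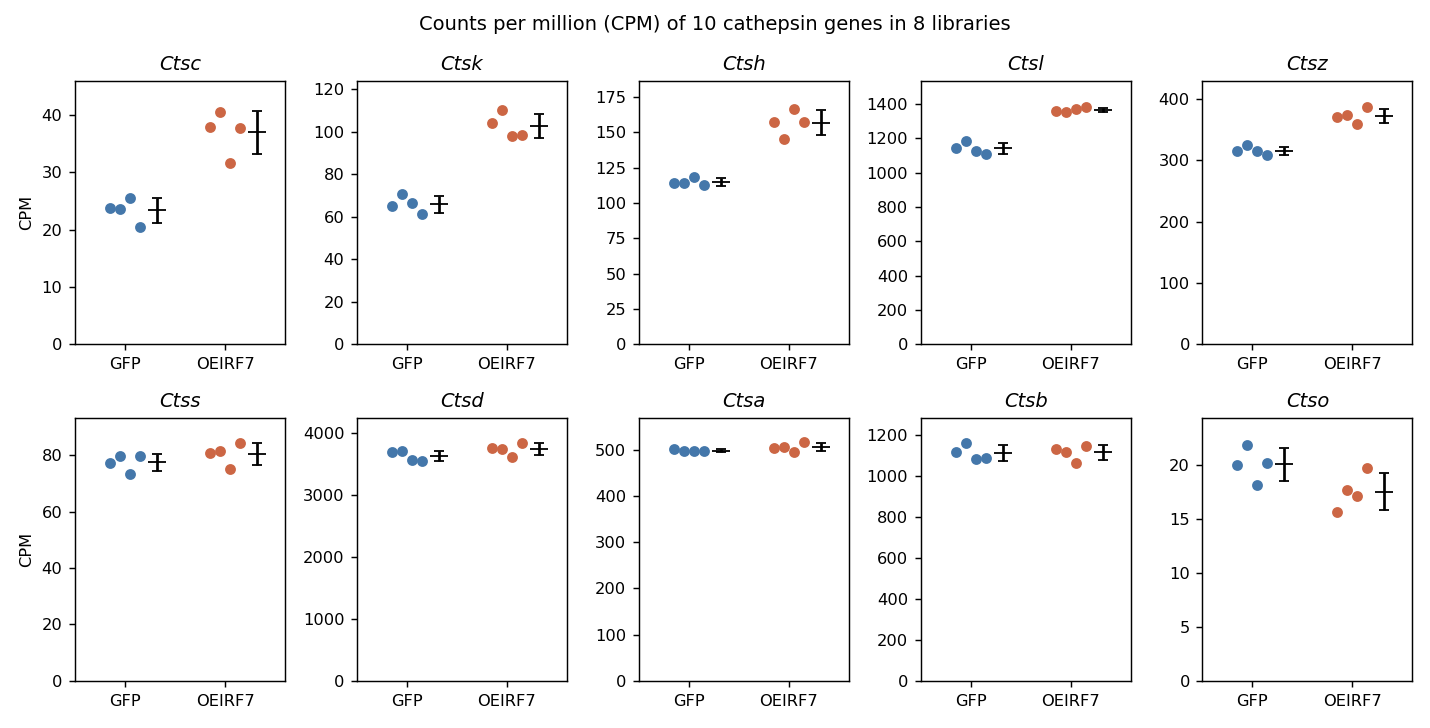
CPM (vertical axis, from 0) of each cathepsin in the 4 GFP and 4 OEIRF7 libraries (points), with mean and SD beside them, in order of log2 fold change. All OEIRF7 libraries lie above all GFP libraries in Ctsc, Ctsk, Ctsh, Ctsl and Ctsz, and the groups overlap in the other 5 genes.

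Ctsc, dipeptidyl peptidase I, activates the serine proteases of immune cell granules by removing dipeptides from their N-termini. Its gene (GRCm38 chromosome 7, 88278085 to 88310888, plus strand) had 23.8, 23.6, 25.6 and 20.4 CPM in GFP replicates 1 to 4 and 38.0, 40.5, 31.6 and 37.8 CPM in OEIRF7. Replicate 3 was the lowest of the OEIRF7 libraries and still lay above every GFP library. The mean went from 23.4 ± 2.14 to 37.0 ± 3.76 CPM (SD, n = 4), a log2 fold change of 0.66 (SE 0.079, adjusted p = 4.6e-06 by edgeR) or 1.59-fold (95% interval 1.41 to 1.78).

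Ctsk, the collagenolytic cathepsin best known from bone-resorbing osteoclasts and also made by activated fibroblasts, rose to a like extent. It had 64.9, 70.7, 66.6 and 61.1 CPM in GFP and 104, 110.2, 98.0 and 98.5 CPM in OEIRF7, with no overlap. Its log2 fold change was 0.64 (SE 0.050, adjusted p = 5.1e-08 by edgeR), 1.56-fold with an interval of 1.45 to 1.68. Of the 7 osteoclast markers examined with it, 4 could be tested, of which 1 rose (Atp6v0d2) and 1 fell (Nfatc1). Among all tested genes 29.0% were called higher and 29.9% lower. Acp5 stood at 4.60 CPM in both groups, and Dcstamp, Ocstamp and Calcr did not pass the filter on low counts. The summed level of these markers was 41.2 to 41.7 CPM in GFP and 41.8 to 45.7 CPM in OEIRF7, and their part in the result was not tested.

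Ctsh, an aminopeptidase of the papain family, had 114, 114, 119 and 113 CPM in GFP and 157, 145, 167 and 158 CPM in OEIRF7. Its log2 fold change was 0.45 (SE 0.041, adjusted p = 3.3e-07 by edgeR), a rise of 1.36-fold. Ctsl and Ctsz moved less and with small spread. Ctsl, a major lysosomal endopeptidase, had 1144, 1184, 1129 and 1111 CPM in GFP and 1360.4, 1352, 1369 and 1382 CPM in OEIRF7 (log2 fold change 0.26, SE 0.027, adjusted p = 1.1e-06 by edgeR). All 4 OEIRF7 values lay above the highest GFP value. Ctsz, a carboxypeptidase, had 315, 325, 315 and 309 CPM in GFP and 371, 374, 359 and 387 CPM in OEIRF7 (log2 fold change 0.24, SE 0.032, adjusted p = 1.6e-05 by edgeR). In each of these 5 genes the exact two-sided permutation test gave p = 0.029, the smallest that 4 against 4 allow. Groups that do not overlap always give this value, so it adds nothing to the lack of overlap, which held for 53.8% of all tested genes.

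Ctsd, Ctsa, Ctsb and Ctss did not pass the test, and their intervals bound the change. Ctsd, the lysosomal aspartic protease and the most abundant cathepsin, had 3697, 3709, 3565 and 3540.5 CPM in GFP and 3755, 3744, 3609 and 3843 CPM in OEIRF7. Its groups overlapped, and its log2 fold change was 0.04 with a 95% interval of -0.01 to 0.10 (adjusted p = 0.17 by edgeR). Ctsa, the protective protein that also shields β-galactosidase and sialidase, had a log2 fold change of 0.02 (interval -0.04 to 0.08, adjusted p = 0.54 by edgeR). Its levels were 497 to 502 CPM in GFP and 495 to 517 CPM in OEIRF7.

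Ctsb, an abundant endo- and exopeptidase, had 1082 to 1163 CPM in GFP and 1066 to 1145 CPM in OEIRF7, with a log2 fold change of 0.01 (interval -0.06 to 0.07, adjusted p = 0.90 by edgeR). Ctss, the cathepsin that degrades the MHC class II invariant chain in antigen-presenting cells, had 77.4, 79.6, 73.2 and 79.6 CPM in GFP and 80.8, 81.4, 75.0 and 84.3 CPM in OEIRF7. Its log2 fold change was 0.05 (interval -0.04 to 0.15, adjusted p = 0.31 by edgeR), and the groups overlapped. The upper bounds of all 4 intervals lay below the log2 fold change of Ctsz.

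Ctso, a widely expressed and little studied family member, was the one cathepsin called lower. It had 20.0, 21.9, 18.2 and 20.3 CPM in GFP and 15.6, 17.7, 17.2 and 19.7 CPM in OEIRF7. The groups overlapped, since OEIRF7 replicate 4 lay above GFP replicate 3. The mean went from 20.1 ± 1.51 to 17.6 ± 1.69 CPM (SD, n = 4), a log2 fold change of -0.20 (SE 0.077, adjusted p = 0.042 by edgeR), and the exact two-sided permutation test gave p = 0.057. The call was lost on omitting any of GFP replicates 1, 2 and 4 or OEIRF7 replicates 1, 2 and 3, under no scaling and on FPKM, with log2 fold changes from -0.25 to -0.14 over all alternatives.

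**Figure D2:**
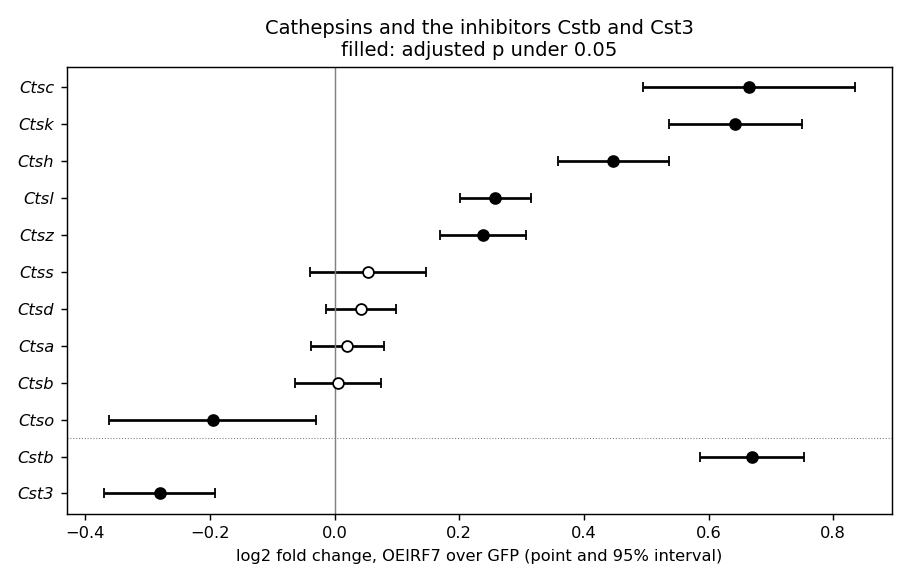
Log2 fold change, OEIRF7 over GFP, with its 95% interval for the 10 cathepsins and, below the dotted line, the inhibitors Cstb and Cst3. Filled points have an adjusted p under 0.05: Ctsc (0.66) to Ctsz (0.24) upward and Ctso (-0.20) downward, with Cstb at 0.67 and Cst3 at -0.28.

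Levels of different genes were ranked on FPKM, fragments scaled to gene length and library size. In GFP the order was Ctsd (1689 ± 41.4 FPKM, SD, n = 4), Ctsl (629 ± 44.6), Ctsa (256 ± 4.14), Ctsb (232 ± 8.02), Ctsz (217 ± 4.83), Ctsh (73.8 ± 2.69), Ctss (56.6 ± 2.17), Ctsk (43.1 ± 2.67), Ctsc (9.49 ± 1.26) and Ctso (5.74 ± 0.433), and no neighbours in this order had overlapping ranges. In OEIRF7 Ctsk (68.6 ± 4.11 FPKM) stood above Ctss (59.9 ± 3.10 FPKM) in all 4 libraries, the reverse of GFP. Ctsz (261 ± 8.75 FPKM) stood above Ctsb (237 ± 8.53 FPKM) in all 4 libraries, also the reverse of GFP, and was level with Ctsa (259 ± 4.34 FPKM), with overlapping ranges and Ctsz above in 2 of 4 libraries. The other genes kept their relative order.

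**Figure D3:**
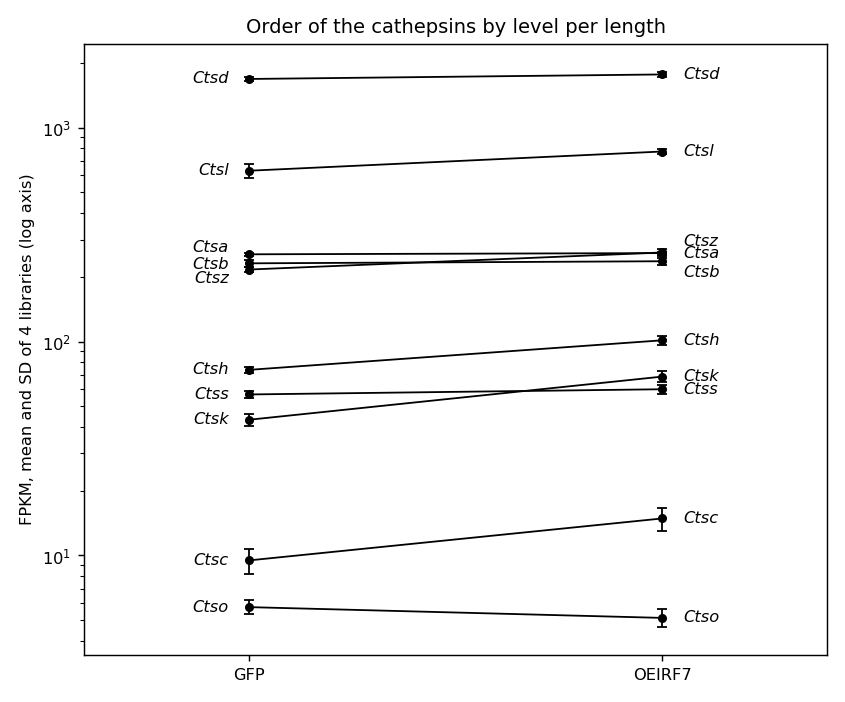
Mean FPKM with SD of 4 libraries (log axis) of each cathepsin in GFP and OEIRF7, joined by a line per gene. The lines of Ctsk and Ctss cross, Ctsz passes Ctsb and reaches the level of Ctsa, and Ctsd stays highest at 1689 and 1773 FPKM.

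Ctsd took 51.8% to 53.3% of the summed cathepsin FPKM in GFP and 49.4% to 50.3% in OEIRF7. The 10 genes together took 0.676% to 0.713% of all counts in GFP and 0.730% to 0.774% in OEIRF7, ranges that do not overlap. Among the genes past the test, Ctsl had the largest difference in mean CPM (1142 ± 31.0 and 1366 ± 12.8).

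Ctsk and Ctss lie side by side on chromosome 3, at 95499256 to 95509362 and 95526786 to 95556403 on the plus strand, with 17423 bases and no protein-coding gene between them. The ratio of their counts within a library was 0.839, 0.888, 0.909 and 0.768 in GFP and 1.29, 1.35, 1.31 and 1.17 in OEIRF7. All 4 OEIRF7 ratios lay above all 4 GFP ratios. Counts are not corrected for gene length, so each ratio is read between the groups and not as which gene is more abundant. The ratio of Ctsl to Ctsb, both abundant lysosomal endopeptidases, went from 1.03 ± 0.0115 to 1.22 ± 0.0404 (SD, n = 4). That of Ctsl to Cst3, its secreted inhibitor, went from 3.20 ± 0.114 to 4.64 ± 0.120. These 3 ratios were chosen with the values known and are given as a description.

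**Figure D4:**
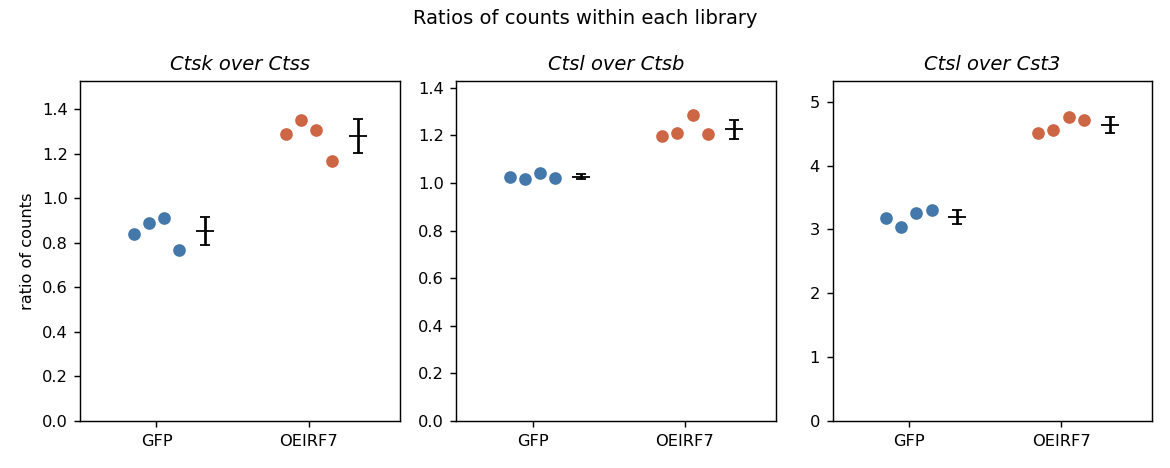
Ratio of counts within each library (points, with mean and SD of 4) for Ctsk over Ctss, Ctsl over Ctsb and Ctsl over Cst3. No OEIRF7 library overlaps a GFP library in any of the 3 ratios.

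Among inhibitors of the cysteine cathepsins, Cstb rose and Cst3 fell. Of 20 cystatins and related inhibitors, 8 could be tested, of which 1 rose, 1 fell and 6 did not pass (29.0% and 29.9% of all tested genes were called higher and lower), with a median log2 fold change of 0.05. Cstb (stefin B), the inhibitor of the cytosol, rose from 182 ± 8.26 to 290.1 ± 9.82 CPM (log2 fold change 0.67, SE 0.039, adjusted p = 2.4e-09 by edgeR). Cst3 (cystatin C), the main secreted inhibitor, fell from 358 ± 22.8 to 295 ± 5.86 CPM (-0.28, SE 0.041, adjusted p = 3.8e-05 by edgeR). The rest of the family stood outside these 10 genes: of 13 other cathepsin genes 2 could be tested, and 10 had at most 10 counts in any library. Ctsw, a cathepsin of cytotoxic lymphocytes, rose from 2.36 to 3.92 CPM (log2 fold change 0.73, adjusted p = 0.00092 by edgeR), and Ctsf did not pass (38.3 and 39.5 CPM, adjusted p = 0.36 by edgeR).

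Lysosomal genes as a whole were mixed. Of 37 other lysosomal hydrolases 7 rose and 18 fell, with a median log2 fold change of -0.13, beside 29.0% and 29.9% of all tested genes called higher and lower. The number that rose was 11 under no scaling beyond library size and with limma on FPKM at either pseudocount. Pla2g15, a phospholipase, and Gla, α-galactosidase A, rose most (0.70 and 0.69), and Ids, iduronate sulfatase (-0.60), and Hyal1, a hyaluronidase (-0.44), fell most. Lgmn, the legumain that cleaves procathepsins, rose by 0.28 (SE 0.036, adjusted p = 9.3e-06 by edgeR). The enzymes that bind Ctsa, named after their values were seen, went apart, with Neu1 at 0.17 (adjusted p = 0.0028 by edgeR) and Glb1 at -0.25 (adjusted p = 2.7e-05 by edgeR).

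Of 18 lysosomal membrane and activator proteins 8 rose and 7 fell, with a median of 0.01. All counts in this paragraph stand beside 29.0% of all tested genes called higher and 29.9% lower. Cln3 (0.59) and the cholesterol exporter Npc1 (0.52) rose most, the calcium channel Mcoln1 (-0.53) and the activator Gm2a (-0.32) fell most, and Psap rose (0.07) while Lamp1 (-0.10) and Lamp2 (-0.21) fell. Of 17 subunits of the V-ATPase, the pump that acidifies the lysosome, 10 rose and 3 fell, with a median of 0.16. Atp6v0a2 (0.48) and Atp6v1b2 (0.38) rose most, and Atp6v0e2 (-0.39) and Atp6v0e (-0.17) fell most.

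Of 13 sorting genes 3 rose and 6 fell, with a median of -0.07, beside 29.0% and 29.9% of all tested genes. Both mannose 6-phosphate receptors fell: M6pr from 201 ± 5.67 to 141 ± 3.27 CPM (log2 fold change -0.52, adjusted p = 8.4e-09 by edgeR) and Igf2r from 772 ± 23.5 to 667 ± 6.15 CPM (-0.21, adjusted p = 1.8e-05 by edgeR). The adaptor Gga1 fell by 0.53 on the log2 scale, and Sorl1 and Vps29 rose (both 0.24). Of 19 regulators of lysosome biogenesis 5 rose and 5 fell, with a median of 0.02. These are shares close to those of all tested genes. Among the MiT/TFE factors that bind CACGTG, Tfec (0.72) and Tfe3 (0.31) rose, Tfeb fell by 0.29 with overlapping groups (adjusted p = 0.031 by edgeR), and Mitf did not pass (0.10, adjusted p = 0.44 by edgeR). Zkscan3, a repressor of lysosomal genes, and Rragc also fell (-0.50 and -0.30). Over all 19 regulators the log2 fold changes ran from -1.04 to 0.72, and the gene at -1.04 was not among those named.

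**Figure D5:**
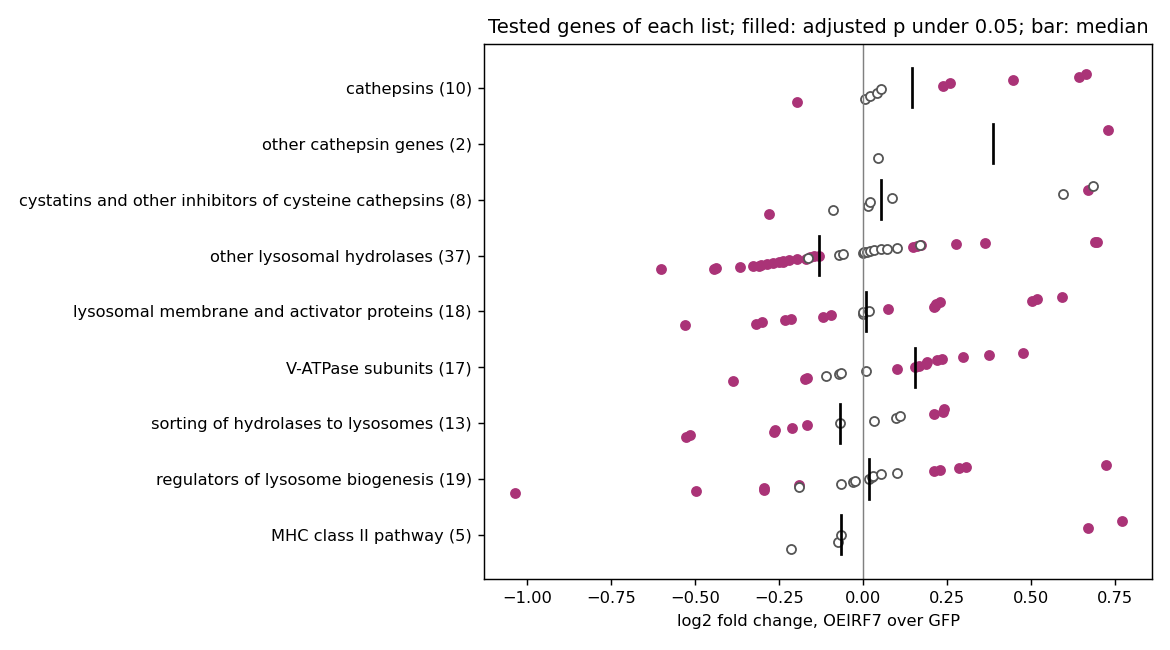
Log2 fold change, OEIRF7 over GFP, of each tested gene (points) in the cathepsins and 8 lists, with the number tested in brackets. Filled points have an adjusted p under 0.05 and bars mark medians, which run from -0.13 for the other hydrolases to 0.39 for the 2 other cathepsin genes and 0.15 for the cathepsins.

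Ctss works in the MHC class II pathway, of whose 11 genes 5 could be tested, with 2 higher and 3 not past the test. The median log2 fold change of the 5 was -0.07, in a range from -0.22 to 0.77. Of all tested genes, 29.0% were called higher. Ifi30, the lysosomal thiol reductase of antigen processing, rose from 72.9 ± 3.46 to 116 ± 6.45 CPM (log2 fold change 0.67, adjusted p = 1.5e-08 by edgeR), and H2-Ab1 went from 1.75 to 2.98 CPM (0.77, adjusted p = 0.0024 by edgeR). Cd74, the invariant chain that Ctss cleaves, was near 0 (means of 0.107 and 0.372 CPM) and was not tested.

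Macrophages express several of these cathepsins highly, and some of their markers were higher in OEIRF7 too. Of 17 macrophage markers 15 could be tested, of which 8 rose, 1 (Cx3cr1) fell and 6 did not pass. Among all tested genes 29.0% were called higher and 29.9% lower. The summed level of the 17 markers was 334 to 389 CPM in GFP and 421 to 470 CPM in OEIRF7, ranges that do not overlap. Lyz2 made up most of it (202 ± 15.9 and 235 ± 11.4 CPM). Itgam, Mrc1 and Cd53 rose, with log2 fold changes of 1.07, 1.05 and 0.95. Over the 15 tested markers the changes ran from -1.86 to 1.07. Ptprc (5.27 ± 0.901 and 4.96 ± 0.757 CPM) and Csf1r (23.1 ± 2.74 and 24.1 ± 1.17 CPM) did not pass the test, and Aif1 and Cd163 had at most 10 counts in any library. The part of these cells in the change of Ctsc, Ctsk, Ctsh, Ctsl and Ctsz was not tested.

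Markers of other cells that a fibroblast culture could hold moved in both directions. Of 9 endothelial markers 3 rose and 1 fell. Of 6 mural markers 5 could be tested, of which 3 rose and 1 fell. Of 6 epicardial or mesothelial markers 2 rose and 2 fell, and the 1 cardiomyocyte marker tested fell. These counts, and those of the fibroblast markers below, stand beside 29.0% of all tested genes called higher and 29.9% lower. The summed level of 9 endothelial markers was 240.4 to 251 CPM in GFP and 239.9 to 266 CPM in OEIRF7, that of 6 mural markers 66.0 to 73.8 and 78.6 to 99.4 CPM, that of 6 epicardial or mesothelial markers 151 to 159 and 105 to 119 CPM, and that of 10 cardiomyocyte markers 9.84 to 13.7 and 7.77 to 9.96 CPM. The 10 fibroblast markers summed to 13460.2 to 14180.4 CPM in GFP and 11856 to 12453 CPM in OEIRF7. Of these, 6 fell, Tcf21 among them (58.3 ± 6.13 to 23.1 ± 3.49 CPM), and Pdgfra rose (122 ± 6.31 to 145 ± 15.4 CPM). Their part in the cathepsin values was likewise not tested.

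Several cathepsins overlap other annotated genes. The strand setting of the counting is not given in the sources used here. How reads from the shared stretches were counted is not known. Ctsb overlaps Fdft1 by 774 bases and Ctsa overlaps Pltp by 1515 bases on the opposite strand. Ctsd shares 6757 bases of the same strand with Gm49369, whose highest count was 216 against at least 88008 for Ctsd. Ctsz overlaps Nelfcd by 10 bases, and the other 6 cathepsins overlap no other gene of the table.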

How the data were processed

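RNA of 8 libraries of primary murine cardiac fibroblasts, 4 labelled GFP and 4 labelled OEIRF7, was sequenced as paired reads. By the study's methods, the authors used Trimmomatic for trimming, HISAT2 for mapping to GRCm38, HTSeq-count for gene counts and Cufflinks for FPKM. The deposited counts are raw whole numbers, and the FPKM deposited by the authors are normalized for length and depth and rounded. Versions and the strand setting of the counting are not given in the sources used here. The labels and the methods name different extraction and library kits. In the deposited annotation the letters nc had been replaced by GFP, so 121 symbols were restored by Ensembl identifier, of which 22219 matched the gene names used. No cathepsin was affected. The authors' own comparison (group means, log2 ratio, p-value and FDR, 5 columns) was not used.

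The count test was edgeR 4.0.16 in R 4.3.3 (filterByExpr, TMM scaling, then glmQLFit and glmQLFTest with the group as sole term), with Benjamini-Hochberg adjustment over all tested genes. A prior count of 2 entered log2 CPM. Exact two-sided permutation tests were run on log2 CPM. Intervals of fold changes are 95% intervals of the fit. The edgeR, DESeq2 and limma log2(FPKM + 1) tests were tried on simulated data, and the permutation test on a fixed set of values. Alternatives were DESeq2 1.42.0, limma 3.58.1 on log2 FPKM with pseudocounts of 1 and 0.1 (mean above 0.1 FPKM required), library-size or upper-quartile scaling alone, at least 1 count summed over libraries or at least 10 per library, a block for the replicate number, and omission of each library.

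All 10 cathepsins were named. From other lists the rule took the 2 largest called changes each way above 5 CPM and the founding members. Ctsw, Ctsf, H2-Ab1, Neu1, Glb1 and the cell type markers were named beside it after their values were seen. The members and lists were chosen with earlier results of these data known.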

Additional observations from a re-analysis of the deposited data

Results flagged for a closer look

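Ctsa in GFP replicate 1 stood apart from the other GFP libraries, at 502.1 CPM against 496.9 to 497.7 CPM in the other 3, a gap of 0.859 of the range of the group, above Dixon's critical value. Of 20 groups examined, chance marks about 1 in 20.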

How the results depend on the processing

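Ctsc, Ctsk, Ctsh, Ctsl and Ctsz were called higher in all 16 alternatives, with log2 fold changes of 0.60 to 0.73, 0.61 to 0.68, 0.42 to 0.48, 0.24 to 0.30 and 0.22 to 0.26. The count of cathepsins called lower went from 1 to 0 under no scaling and under limma on log2(FPKM + 1) and log2(FPKM + 0.1), and was 0 to 1 on leaving out a library. Ctso was then -0.17 (adjusted p = 0.075), -0.14 (0.13) and -0.17 (0.12) by these 3 settings, and -0.25 to -0.14 on leaving out a library. Ctsd passed the test only under no scaling, at 0.070 (adjusted p = 0.037 by edgeR). Ctsb turned to -0.00049 with a minimum of 1 count in total and lay between -0.0084 and 0.026 on leaving out a library. The inhibitors called higher numbered 2 under both limma settings and 1 to 2 on leaving out a library, the hydrolases called higher 11 under no scaling and both limma settings and 6 to 8, and the membrane proteins called higher 5 to 8, with 5 without OEIRF7 replicate 2. The cause was not tested.

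The labels do not state that replicate numbers pair the libraries. Between libraries of the same number, the correlations of deviations from group means were 0.0792, 0.0953, 0.138 and 0.104. Each GFP library correlated best with the OEIRF7 library of its own number. This is a hint of pairing from the data and not from the design. With the replicate block the cathepsins called higher numbered 5 and those called lower 1, as without it, and it changed no other call of a cathepsin. The order of levels by CPM kept 8 of 10 ranks in each group. Ctso and Ctsc, with 403 to 1175 counts per library, had the widest intervals of the 10 cathepsins.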

Other observations

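By a rule on likeness, the genes whose log2 CPM followed that of Ctsc most closely over the 8 libraries, among 10319 genes above 5 CPM, were Mfsd12 (Pearson r = 0.994), Dnajc7 (0.984) and Dlg4 (0.983). The points share the division into 2 groups, and the values are a description. FPKM and CPM did not stay in a fixed ratio for every cathepsin: the ratio varied between libraries with a coefficient of variation of 1.07% to 1.20% in 7 genes but of 1.73% in Ctsh, 3.96% in Ctsl and 4.06% in Ctsc. In Ctsl the log2 ratio of group means was 0.30 by FPKM and 0.26 by CPM.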
